A study of Mus musculus with 7 samples.

Results

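Bone morphogenetic protein (BMP) ligands, their receptors and 2 of their antagonists were compared between 2 populations of sorted mouse bone marrow cells. The genes were the ligands Bmp2, Bmp4, Bmp5, Bmp6 and Bmp7, the receptors Bmpr1a, Bmpr1b and Bmpr2, and the antagonists Chrdl1 and Grem1. Every probe set that the array's annotation assigns to 1 of these 10 gene symbols alone was taken, which gave 26 probe sets of the 45101 on the array. They comprised 9 for ligands, 12 for receptors and 5 for antagonists. Amplified RNA from 1800 to 10000 cells per sample was hybridised to 7 arrays of the Affymetrix mouse 430 2.0 type. All cells came from untreated wild-type C57Bl/6J mice of 6 to 12 weeks and were sorted as negative for CD45 and lineage markers. The first population was CD54+CD31-BP1+, is labelled bone marrow stromal cells and has 4 arrays (BP1+ arrays 1 to 4). The second was CD54-CD31+, is labelled bone marrow endothelial cells and has 3 arrays (CD31+ arrays 1 to 3). The labels do not say whether replicates came from separate mice or sorts, so p-values measure only the spread between these samples.

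BMPs are secreted growth factors of the TGF-beta superfamily. A ligand dimer brings together type I receptors, such as those encoded by Bmpr1a and Bmpr1b, and a type II receptor, such as that encoded by Bmpr2. The receptors phosphorylate SMAD proteins, which enter the nucleus with SMAD4 and switch on genes such as the Id family. Gremlin 1 and chordin-like 1 bind ligands outside the cell and keep them from the receptors. In the skeleton the pathway is best known for driving osteoblast formation.

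Values are deposited log2 expression values, and differences are BP1+ minus CD31+ on the log2 scale. Each array's 40th percentile (5.48 to 5.52 on the BP1+ arrays and 5.68 to 5.79 on the CD31+ arrays) served as its floor. A probe set was tested if it exceeded the floor on 3 or more arrays, and was called where limma gave a Benjamini-Hochberg adjusted p under 0.05 over all 29439 probe sets tested and a difference of at least 1. Folds are given only where both means lay above that percentile, since differences from lower levels are limited by the floor of the arrays. For the folds of Bmp4, Bmp6 and Id1, CD31+ array 2 alone lay below it. For that of Acvr2a CD31+ array 1 alone did, and for that of Acvrl1 CD31+ array 3 alone. In bulk RNA, fewer cells that make a transcript and less of it per cell cannot be told apart.

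The labels were checked against marker genes. All 8 reticular stroma genes on a list that included Cxcl12 and Lepr had a probe set called higher on the BP1+ arrays. The list's mean level per array was 13.24 to 13.42 there and 5.46 to 6.48 on the CD31+ arrays. Osteoblast genes moved the same way, with 6 of 7 probe sets and all 4 genes measured called toward BP1+ and a mean level of 9.83 to 10.65 against 5.84 to 6.16. Pericyte and smooth muscle genes were mixed, with 3 of 13 probe sets called toward BP1+, those of Notch3 and 1 of Rgs5. In 7 of the 13 every CD31+ array lay above every BP1+ array, and the median difference over the 13 was -0.60. Of these 13, 7 were too dim to be tested. The endothelial label had less behind it. Of 10 endothelial genes 3 (Pecam1, Kdr and Flt1) were called higher on the CD31+ arrays, while Cdh5, Emcn, Tek and Tie1 lay below the 40th percentile on all 7 arrays. All 8 megakaryocyte and platelet genes measured were called higher on the CD31+ arrays, with a mean level of 13.49 to 13.85 against 5.68 to 8.54. All 5 pan-leukocyte genes were also called higher there (10.91 to 11.83 against 5.56 to 8.03). Both populations are therefore named below by their sort, and the part of the osteoblast, pericyte, megakaryocyte and leukocyte transcripts in the BMP results was not tested. The 18 hybridisation control probe sets averaged 11.33 and 11.37 on CD31+ arrays 2 and 3 and 9.51 to 9.75 on the other 5 arrays. With that split as a block, CD31+ array 1 alone stands for its population.

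BP1+ cells carried far more mRNA for Bmp4, Bmp5, Bmp6, Chrdl1 and Grem1, and more for the receptor Bmpr1a by most of its probe sets. The probe sets of the receptor Bmpr2 differed by 5.01, 1.07 and -0.12, the last not called. Bmp2 was higher in CD31+ cells by its only probe set, a call that depended on the rule used (below). Of the 26 probe sets, 16 were called higher on the BP1+ arrays, 1 was called higher on the CD31+ arrays, 3 were tested and not called, and 6 were too dim to be tested. Over all tested probe sets 26.0% were called toward BP1+ and 14.6% toward CD31+, 40.6% in all. After a second quantile normalization the share of all calls that went toward BP1+ was 51.9%, against 64.1% as deposited. The filter keeps a probe set that is bright in 1 population alone, so the share among tested members is a description. The median difference over the 20 tested members was 3.61, and that over every probe set tested was 0.07. Over all 26 it was 2.12, against -0.31 over all probe sets with no filter. In 17 of the 26 every BP1+ array lay above every CD31+ array, in 7 the reverse held and in 2 the arrays overlapped. Among all tested probe sets those separations held in 30.3% and 31.4%. Below the filter they held in 2.73% and 56.2%, so dim probe sets tended to read lower on the BP1+ arrays.

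**Figure D1:**
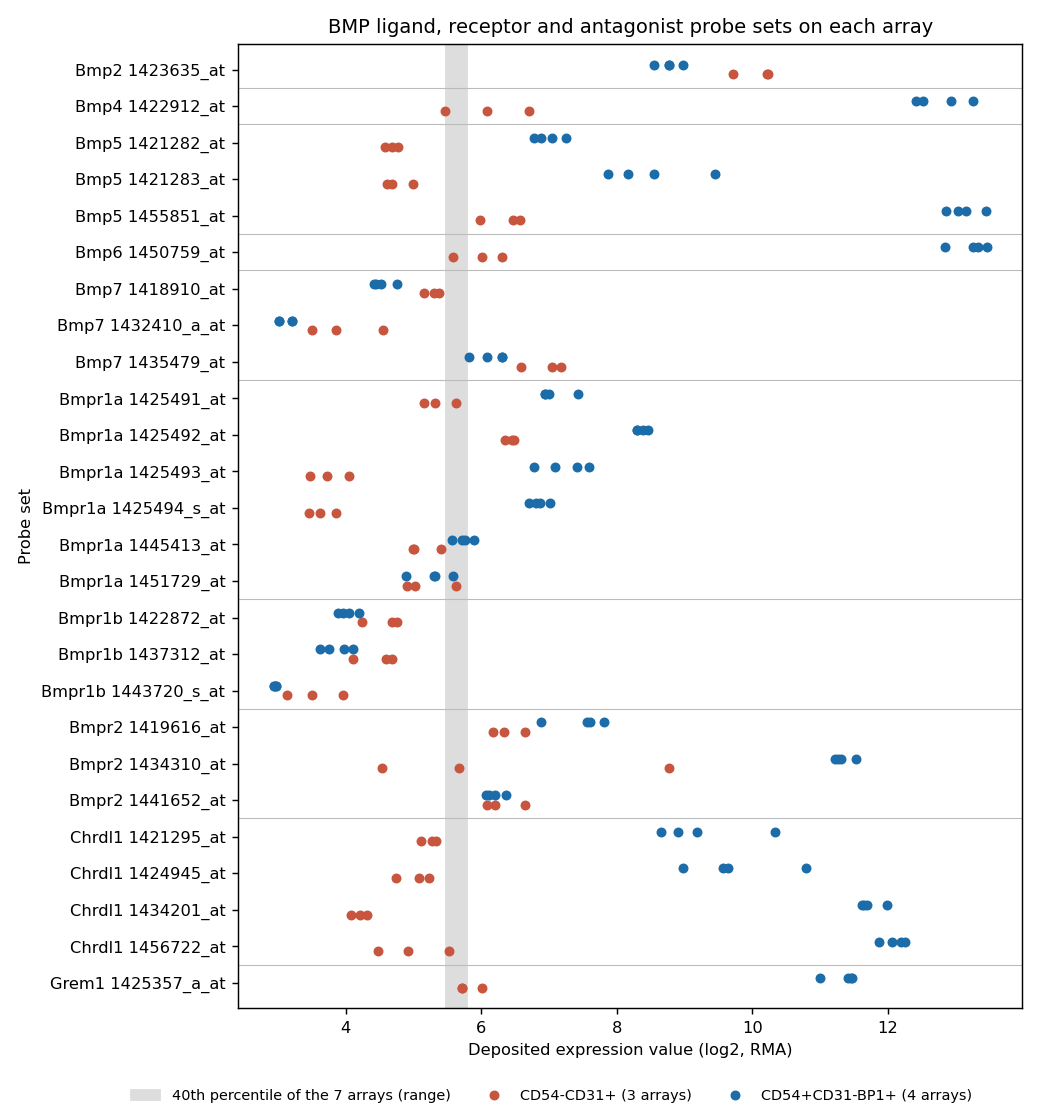
Expression value (log2, horizontal axis) of each of the 26 probe sets (rows) on the 4 CD54+CD31-BP1+ arrays (blue) and the 3 CD54-CD31+ arrays (red); each point is 1 array and the grey band spans the arrays' 40th percentiles, 5.48 to 5.79. Bmp4, Bmp5, Bmp6, Chrdl1 and Grem1 have widely separated blue and red points, Bmp2 has red points to the right of blue, and all Bmpr1b points lie left of the band.

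Among the ligands, Bmp4, an inducer of osteoblast and mesodermal fates, showed a wide gap between the populations. Its probe set 1422912_at read 13.26, 12.53, 12.42 and 12.93 on BP1+ arrays 1 to 4 and 6.08, 5.47 and 6.70 on CD31+ arrays 1 to 3. The lowest BP1+ array lay 5.72 above the highest CD31+ array. The means were 12.78 ± 0.39 (SD, n = 4) and 6.08 ± 0.62 (n = 3), a difference of 6.70 ± 0.33 (SE) or 104-fold (95% interval 61.0 to 178, limma adjusted p = 2.6e-06). The 4 other genes whose centred values ran closest to those of Bmp4 over the 7 arrays were Adh1, the EBF family transcription factor gene Ebf3, Vit and the collagen gene Col4a1. Their root-mean-square distances were 0.22 to 0.28 and their Pearson correlations with Bmp4 0.997 to 0.998 (n = 7). This likeness is mostly the shared step between populations.

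Bmp6, best known as the liver signal that controls the iron hormone hepcidin, gave the largest difference of the ligand probe sets. The single Bmp6 probe set 1450759_at read 13.26, 13.33, 12.85 and 13.46 on the BP1+ arrays and 6.01, 5.58 and 6.31 on the CD31+ arrays. No array of one population came within 6.54 of the other. The difference was 7.26 ± 0.24 (SE), or 153-fold (95% interval 104 to 225, limma adjusted p = 4.93e-07).

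Bmp5, a close relative of Bmp6 and Bmp7 with roles in cartilage and bone shape, was measured by 3 probe sets that agreed in direction and not in size. Probe set 1455851_at read 13.16, 12.86, 13.04 and 13.46 on the BP1+ arrays and 5.98, 6.57 and 6.47 on the CD31+ arrays. It gave a difference of 6.79 ± 0.23 (SE), or 111-fold (95% interval 77.0 to 159, limma adjusted p = 4.93e-07). The other Bmp5 probe sets were dimmer on the BP1+ arrays and below the 40th percentile on every CD31+ array. Probe set 1421283_at read 7.87, 8.56, 8.16 and 9.45 against 4.69, 4.60 and 4.998, a difference of 3.74 (limma adjusted p = 9.26e-05). Probe set 1421282_at read 6.89, 7.04, 6.77 and 7.25 against 4.58, 4.68 and 4.77, a difference of 2.31 (limma adjusted p = 2.86e-05). In all 3 Bmp5 probe sets the highest reading was on BP1+ array 4.

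Bmp2, a strong inducer of bone formation, ran the other way. Probe set 1423635_at read 8.77, 8.77, 8.98 and 8.55 on the BP1+ arrays and 10.23, 9.71 and 10.24 on the CD31+ arrays. All readings lay well above the 40th percentile, so both populations carried the transcript, and the arrays did not overlap. The difference was -1.29 ± 0.21 (SE), or 2.44-fold higher on the CD31+ arrays (95% interval 1.75 to 3.40, limma adjusted p = 0.00137). After a second quantile normalization of the 7 arrays it was -1.75, and after cyclic loess -1.87. The limma test against a difference of 1 (treat) no longer called it (adjusted p = 0.367; range over all alternatives 5.07e-04 to 0.367). The genes closest to Bmp2 in centred values were St3gal3, Cd300c2, Fbxo6 and C1galt1c1 (distances 0.08 to 0.10, correlations 0.989 to 0.993, n = 7).

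Bmp7, a ligand needed for kidney and eye development, was dim in both populations. Only 1435479_at passed the filter, with readings of 5.82, 6.08, 6.31 and 6.31 on the BP1+ arrays and 7.18, 6.58 and 7.04 on the CD31+ arrays. Its difference of -0.80 (limma adjusted p = 0.0148) was smaller than the size of 1 asked for. It passed that size with the hybridisation control block (-1.05) and without both BP1+ array 4 and CD31+ array 2 (-1.04). The other Bmp7 probe sets, 1418910_at and 1432410_a_at, lay below the 40th percentile on all 7 arrays and differed by -0.74 and -0.86. The median difference of the 15598 probe sets below the filter was -0.50, with the middle 50% between -0.74 and -0.23. Probe set 1418910_at lay at the lower edge of that range and 1432410_a_at below it. After cyclic loess these 2 differences shrank to -0.23 and -0.49.

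Promoter sequences were available for 7 of the 10 genes in RefSeq (GRCm38.p6), not for Bmp2, Bmp7 or Chrdl1. Those of Bmp4, Bmp5, Bmp6 and Grem1 are shown because, of the genes with an entry, these had the largest differences toward BP1+. Each run holds the 250 bases before the annotated start, 5′ to 3′. Capitals mark matches to CCCNNGGG, the core of the palindrome that EBF factors bind, or to GGCGCC, a GC-rich motif of BMP-activated SMADs; the forkhead motif GTAAACA was also searched. Both strands were read, and no matches overlapped.
Bmp4 promoter, GRCm38.p6 chr14:46390670-46390919, minus strand: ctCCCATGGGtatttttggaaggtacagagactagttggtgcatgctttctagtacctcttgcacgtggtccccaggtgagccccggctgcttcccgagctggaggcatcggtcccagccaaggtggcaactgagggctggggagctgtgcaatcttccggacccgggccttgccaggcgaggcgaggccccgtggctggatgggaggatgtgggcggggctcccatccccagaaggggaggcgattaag
Bmp5 promoter, GRCm38.p6 chr9:75775115-75775364, plus strand: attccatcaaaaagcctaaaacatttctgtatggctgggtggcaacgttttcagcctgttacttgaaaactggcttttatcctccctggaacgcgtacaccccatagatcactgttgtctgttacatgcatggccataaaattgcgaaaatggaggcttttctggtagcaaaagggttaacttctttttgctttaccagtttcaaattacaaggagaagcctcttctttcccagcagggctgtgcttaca
Bmp6 promoter, GRCm38.p6 chr13:38345466-38345715, plus strand: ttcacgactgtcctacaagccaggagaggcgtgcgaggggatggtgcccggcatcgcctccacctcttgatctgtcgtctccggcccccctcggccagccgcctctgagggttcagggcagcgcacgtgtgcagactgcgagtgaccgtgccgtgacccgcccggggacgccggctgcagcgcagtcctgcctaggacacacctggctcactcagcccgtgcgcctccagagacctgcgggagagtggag
Grem1 promoter, GRCm38.p6 chr2:113758649-113758898, minus strand: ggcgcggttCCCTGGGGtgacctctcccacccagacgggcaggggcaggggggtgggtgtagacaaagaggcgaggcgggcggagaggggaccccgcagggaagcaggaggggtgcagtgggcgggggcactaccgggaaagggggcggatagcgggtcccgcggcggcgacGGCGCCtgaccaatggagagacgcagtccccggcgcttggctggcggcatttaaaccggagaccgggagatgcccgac

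The 4 promoters had little in common by these measures. CCCNNGGG was found 248 bases before the start of Bmp4 and 241 before that of Grem1, and in 11.8% of 32851 mouse promoters of that length. GGCGCC was found 78 bases before the start of Grem1, 198 before that of Bmpr1a and 105 before that of Bmpr2, and in 9.59% of all. GTAAACA occurred in none of the 7 genes' windows and in 3.17% of all. CG dinucleotides numbered 11 for Bmp4, 4 for Bmp5, 22 for Bmp6 and 24 for Grem1, against a median of 6. The Bmpr1a window held 36 and the Bmpr2 window 22. A match is a description of the letters only.

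Both antagonist genes were higher on the BP1+ arrays in every one of their 5 probe sets. Grem1, which encodes the secreted inhibitor gremlin 1, read 11.41, 11.47, 11.47 and 10.995 on the BP1+ arrays and 5.71, 5.72 and 6.01 on the CD31+ arrays (1425357_a_at). The lowest Grem1 reading among BP1+ arrays, on array 4, still lay 4.98 above the highest CD31+ reading. The difference was 5.52 ± 0.20 (SE), or 45.9-fold (95% interval 33.6 to 62.7, limma adjusted p = 5.54e-07). On CD31+ arrays 1 and 2 the Grem1 readings lay just above those arrays' 40th percentiles (5.68 and 5.69), so this fold is limited by the floor.

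Chrdl1, which encodes chordin-like 1, had the largest difference of any of the 26 probe sets. Probe set 1434201_at read 11.62, 11.70, 11.65 and 11.99 on the BP1+ arrays and 4.20, 4.32 and 4.08 on the CD31+ arrays, a difference of 7.54 ± 0.18 (SE, limma adjusted p = 2.24e-07). Probe set 1456722_at read 12.25, 11.88, 12.20 and 12.06 against 4.47, 5.53 and 4.92, a difference of 7.12 (limma adjusted p = 6.59e-07). The CD31+ readings of both lay below the 40th percentile, and those of 1456722_at spread more widely (SD 0.53) than those of 1434201_at (SD 0.12). The other Chrdl1 probe sets gave smaller differences and ordered the BP1+ arrays differently. Probe set 1424945_at read 10.79, 9.58, 9.64 and 8.98 on BP1+ arrays 1 to 4, and 1421295_at read 9.18, 8.90, 8.65 and 10.33. Array 4 was thus the lowest of its group by one and the highest by the other. Their differences were 4.73 and 4.03 (limma adjusted p = 4.14e-05 and 8.08e-05), and neither overlapped with the CD31+ arrays, at 4.74 to 5.33.

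**Figure D2:**
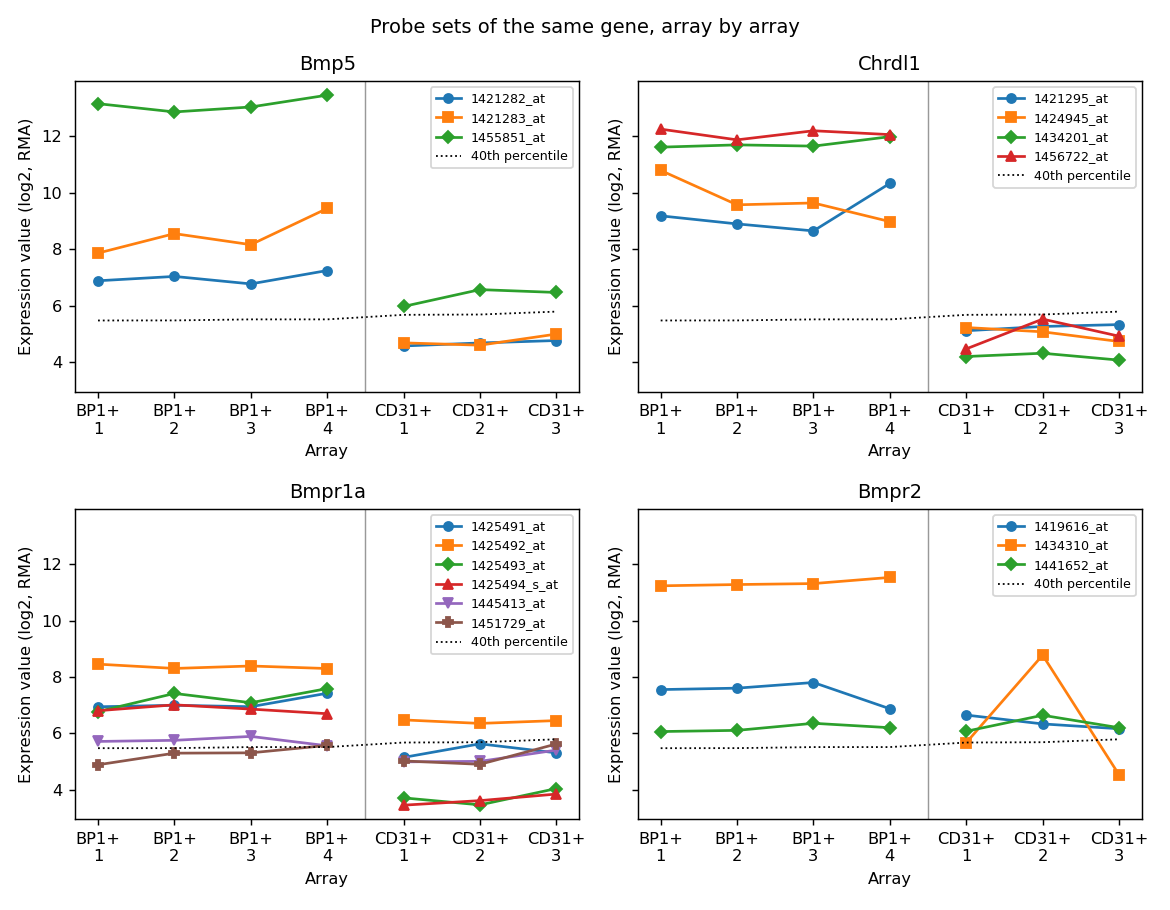
Expression value (log2, vertical axis) of every probe set of Bmp5, Chrdl1, Bmpr1a and Bmpr2 on each of the 7 arrays (horizontal axis; 4 BP1+ on the left, 3 CD31+ on the right); lines join readings of 1 probe set and the dotted line is each array's 40th percentile. Probe sets of 1 gene differ in level and in the size of the step, the Chrdl1 probe sets 1424945_at and 1421295_at cross on BP1+ array 4, and Bmpr2 1434310_at stands at 8.77 on CD31+ array 2.

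The type I receptor gene Bmpr1a was higher on the BP1+ arrays by 4 of its 6 probe sets. Probe set 1425492_at, the only Bmpr1a probe set above the 40th percentile in both populations, read 8.45, 8.30, 8.39 and 8.30 on the BP1+ arrays and 6.48, 6.36 and 6.46 on the CD31+ arrays. That is a difference of 1.93 ± 0.16 (SE), or 3.81-fold (95% interval 2.97 to 4.89, limma adjusted p = 3.24e-05). The spread within each population (SD 0.07 in both) was far smaller than the step between them. Probe sets 1425493_at, 1425494_s_at and 1425491_at differed by 3.47, 3.20 and 1.71 from CD31+ levels below the 40th percentile (limma adjusted p = 1.84e-05, 4.57e-06 and 3.11e-04). Probe set 1445413_at differed by 0.59 and was not called (limma adjusted p = 0.0249), although after cyclic loess it was, at 1.101. The dim 1451729_at overlapped between the populations, at 4.89 to 5.58 and 4.91 to 5.63.

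Bmpr1b, the second BMP type I receptor gene and one tied to cartilage formation, lay below the 40th percentile on all 7 arrays by all 3 probe sets. The readings ran from 2.93 to 4.19 on the BP1+ arrays and from 3.14 to 4.76 on the CD31+ arrays. The differences were -0.54, -0.60 and -0.58, near the median of -0.50 for probe sets below the filter. With no filter, where limma tested them, none reached the required size (adjusted p = 0.0341, 0.0360 and 0.0422). After cyclic loess they shrank to -0.09, -0.16 and -0.25.

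Bmpr2, the gene of the main BMP type II receptor, gave a different answer with each probe set. Probe set 1434310_at read 11.23, 11.27, 11.31 and 11.53 on the BP1+ arrays, with little spread, and 5.67, 8.77 and 4.54 on the CD31+ arrays. CD31+ array 2 thus stood far above the other two and still 2.45 below the lowest BP1+ array. The difference was 5.01 ± 0.86 (SE, limma adjusted p = 0.00191). Only 1 of the 3 CD31+ arrays, array 2, lay above its 40th percentile, so no fold is given. Without CD31+ array 2 the difference was 6.23, and without CD31+ array 3 it was 4.11. CD31+ array 2 also had the highest mean of 5 B-lineage genes, 10.33 against 7.78 and 7.71 on CD31+ arrays 1 and 3. It was likewise the highest of the 3 for neutrophil genes (12.55 against 11.86 and 9.54), monocyte and macrophage genes (9.47 against 8.92 and 8.35) and pan-leukocyte genes (11.83 against 11.39 and 10.91). The part of these transcripts in the Bmpr2 value was not tested.

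The remaining Bmpr2 probe sets showed a small step or none. Probe set 1419616_at read 7.55, 7.60, 7.80 and 6.87 on the BP1+ arrays and 6.65, 6.34 and 6.17 on the CD31+ arrays. It was called at a difference of 1.07 (2.11-fold, 95% interval 1.39 to 3.19, limma adjusted p = 0.00878). It fell short of 1 without BP1+ array 3 (0.96), without CD31+ array 3 (0.96), with the hybridisation control block (0.81), after cyclic loess (0.91) and after a second quantile normalization (0.89). The treat test did not call it either (adjusted p = 0.989). Probe set 1441652_at overlapped, at 6.07 to 6.36 and 6.08 to 6.65, with a difference of -0.12 (95% interval -0.58 to 0.33, limma adjusted p = 0.604).

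**Figure D3:**
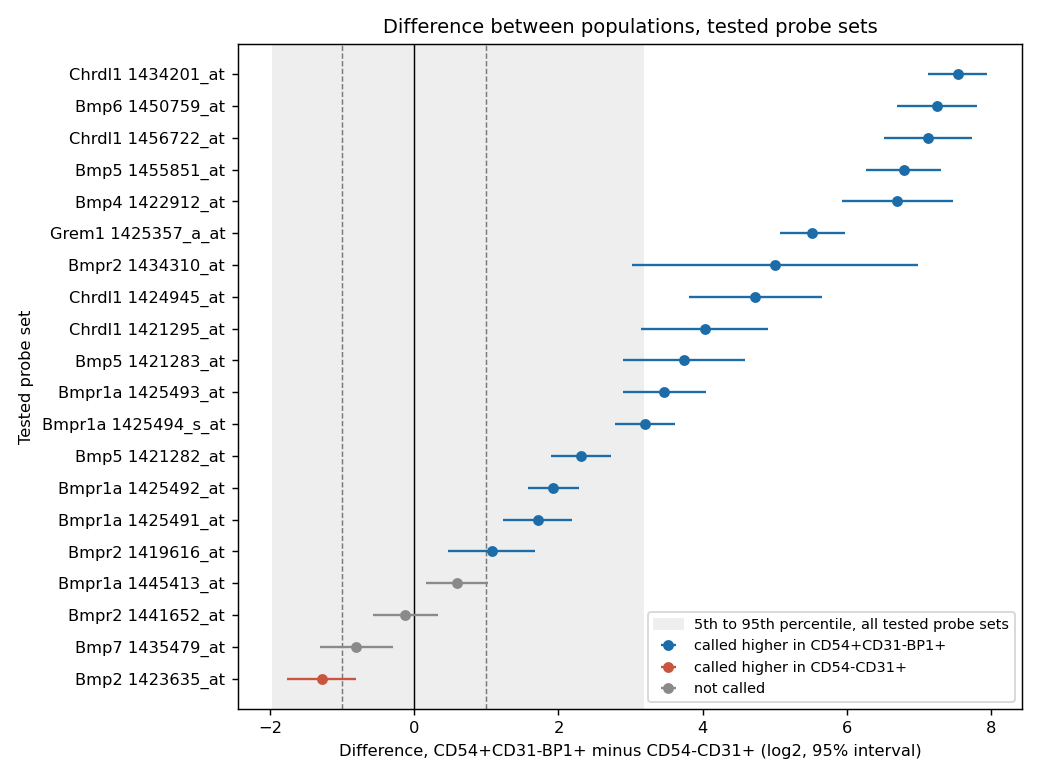
Difference between the populations (log2, BP1+ minus CD31+, horizontal axis) for the 20 tested probe sets (rows), with 95% intervals from limma; dashed lines mark differences of -1 and 1 and the shaded band runs from the 5th to the 95th percentile of all tested probe sets, -1.96 to 3.17. Blue points (16) were called toward BP1+, the red point is Bmp2 and grey points (3) were not called.

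Among all probe sets of the array the members spread from the floor to the far upper edge. The differences of Bmp4, Bmp6, Bmp5 1455851_at and Chrdl1 1434201_at stood at the 99.6th percentile of tested probe sets or above, and that of Grem1 at the 99.0th. The other Bmp5 probe sets stood at percentiles 90.0 and 96.7, and the other Chrdl1 probe sets at 97.3, 98.3 and 99.8. The members were chosen with earlier results of these data known, so these ranks are a description. Bmp2 stood at the 9.05th percentile and Bmpr1a 1425492_at at the 86.4th. Of the 16 probe sets called toward BP1+, 9 had their highest reading on BP1+ array 4, several of them for the same gene. Over all 26, that array was the highest of its group in 11 and the lowest in 8. The matching share over all probe sets of the array was not computed. Megakaryocyte and platelet transcripts averaged 8.54 on BP1+ array 4, against 5.68 to 6.42 on the other BP1+ arrays, and their part in the BMP readings was not tested. Without BP1+ array 4, 16 member probe sets were called toward BP1+ and 1 toward CD31+. Without both that array and CD31+ array 2 the counts were 16 and 2, the addition being Bmp7 1435479_at.

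**Figure D4:**
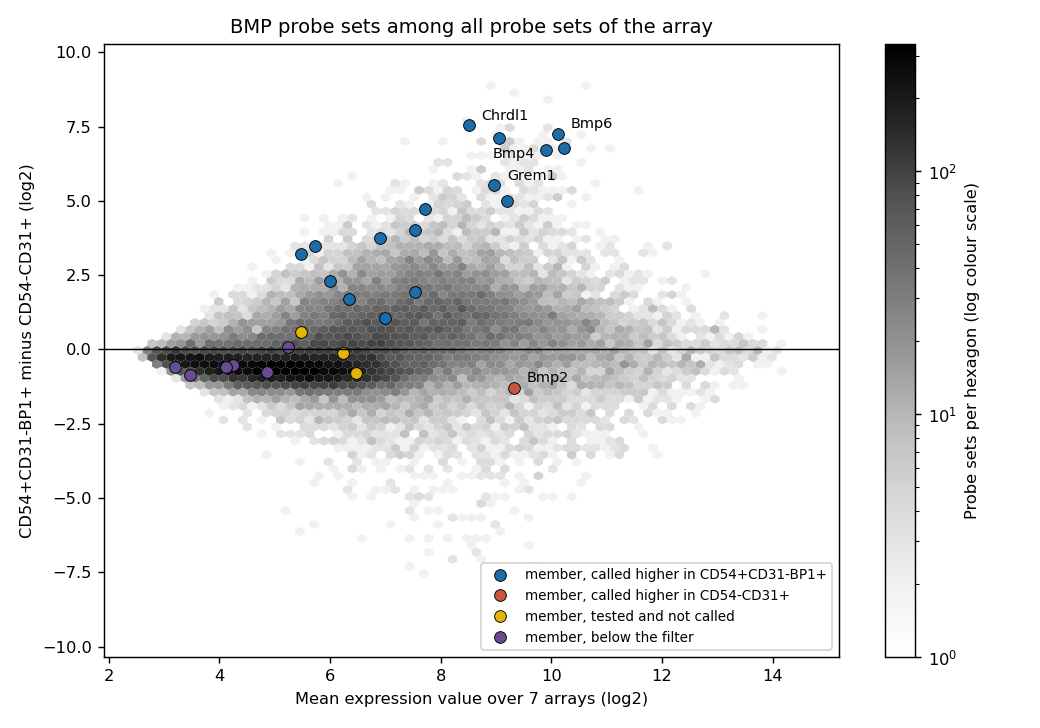
Difference between the populations (log2, vertical axis) against the mean over all 7 arrays (log2, horizontal axis) for every probe set of the array except controls (grey hexagons, darker where more probe sets lie) and for the 26 BMP probe sets (coloured points). Dim probe sets in general sit slightly below 0, as do those of Bmpr1b and Bmp7, while Chrdl1, Bmp6 and Bmp4 lie near the upper edge.

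The wider pathway was described with 5 lists of 55 further genes, of which 50 had a probe set of their own. Of their 93 probe sets 36 were called toward BP1+ and 2 toward CD31+. Another 34 were tested and not called, and 21 were too dim to be tested. The backgrounds of 26.0% and 14.6% cover tested probe sets only, of which these lists held 72. The median difference over these 93 was 0.50, and 1.17 over the 72 tested. Counts of genes with a called probe set are given below without the matching share over all genes, which was not computed. A gene with more probe sets has more chances to be called.

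Of 7 other BMP and GDF ligand genes measured, 1 was called. Gdf10, a divergent member of the family also known as BMP3b, was 13.2-fold higher on the BP1+ arrays (10.20 ± 0.40, SD, n = 4, against 6.48 ± 0.17, n = 3, limma adjusted p = 1.24e-05). Gdf2, which encodes the circulating endothelial ligand BMP9, differed by -0.87 and was not called. Bmp10, Bmp15, Bmp8a, Bmp8b and Gdf5 were not called in either direction by any probe set.

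Among other receptors and coreceptors 12 of 20 probe sets, all tested, were called toward BP1+, against 26.0% of all tested probe sets. By gene, 7 of 8 had such a probe set, and the matching share over all genes was not computed. The type I receptor gene Acvr1 stood at 12.03 ± 0.24 against 4.97 ± 0.32 (difference 7.05, limma adjusted p = 4.72e-07) by 1448460_at, while its other probe sets were not called. The type II receptor gene Acvr2a was 13.7-fold higher (1437382_at, limma adjusted p = 1.56e-04). The coreceptor gene Rgmb was higher by 4 of its 6 probe sets, with differences of 1.95 to 2.96. The others, 1428430_at and 1459366_at, were not called, at -0.69 and -0.58, with every CD31+ array above every BP1+ array. The decoy receptor gene Bambi was higher by 2.32. Acvrl1 and Eng, which encode the endothelial receptor ALK1 and its partner endoglin, were also higher on the BP1+ arrays, at 3.09-fold (1451604_a_at) and 2.27-fold (1432176_a_at). The other Eng probe set, 1417271_a_at, differed by 0.93 and was not called. Probe sets of Acvr2b disagreed, with 1.16 for 1419140_at and -1.16 for 1440525_at, both called.

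Other extracellular modulators were split between very bright and dim genes. Of 17 measured, 5 had a probe set called toward BP1+. Fst, which encodes the activin and BMP binder follistatin, was 58.2-fold higher (1421365_at, 12.60 ± 0.24 against 6.74 ± 0.19, limma adjusted p = 4.99e-07). Fstl1, a secreted follistatin-like protein gene, differed by 8.45 with 1416221_at and by 8.20 with 1448259_at. The latter was 9.04 without CD31+ array 2 and 7.54 without CD31+ array 1. The remaining called genes were Bmper, which encodes a chordin-family BMP binder (5.38), Twsg1, which encodes a chordin partner (4.22 by 1450388_s_at), and Bmp1, whose protease product cleaves chordin (3.49 by 1426238_at and -1.19 by 1427458_at). The other Twsg1 probe sets, 1421832_at, 1426073_at and 1426179_a_at, lay below the filter and differed by 0.09, -0.73 and -0.40. The classical antagonist gene Nog lay below the filter, at 5.08 ± 0.18 and 5.48 ± 0.38, and Chrd differed by -0.08 and was not called. Chrd lay at 6.28 ± 0.21 and 6.37 ± 0.34.

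Among signal transducers 7 of 15 probe sets, all tested, were called toward BP1+. Among target and feedback genes 9 of 20 were, of which 16 were tested. None was called toward CD31+ in either list. Over all tested probe sets the shares were 26.0% toward BP1+ and 14.6% toward CD31+. Smad4, the common partner SMAD, was called by all 3 probe sets at 2.32 to 2.87, and Smad5 by 2 of 3 at 1.86 and 2.12. Smad1 was called by 1416081_at (1.34) and 1459843_s_at (2.72), and not by 1448208_at, whose arrays overlapped (2.49, limma adjusted p = 0.0673). By 1459843_s_at CD31+ array 2 read 9.15 against 6.39 and 6.42 on CD31+ arrays 1 and 3, the array that also stood out for Bmpr2, and without it the difference was 3.64. Smad9, Smurf1 and Smurf2, the latter pair encoding ubiquitin ligases for SMADs, were not called. Of 12 target and feedback genes 7 had a probe set called toward BP1+ and none toward CD31+. Id4 stood at 13.06 ± 0.14 against 4.31 ± 0.20 by 1423259_at (difference 8.76, limma adjusted p = 2.24e-07), and Id1 was 3.45-fold higher. Id3 was 65.8-fold higher, and 103-fold without CD31+ array 2, which read 8.26 against 6.31 and 6.34 on CD31+ arrays 1 and 3. Id2 was not called by any of 3 probe sets. The inhibitory SMAD gene Smad6 was higher by 4.27, and by 5.05 without CD31+ array 2 (6.72 against 4.29 and 4.44). Smad7, the other inhibitory SMAD gene, was higher by 2.60 with 1 of 2 probe sets, and the bone regulator Dlx5 by 3.68. Atoh8, Msx1, Msx2 and the hepcidin gene Hamp were not called.

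**Figure D5:**
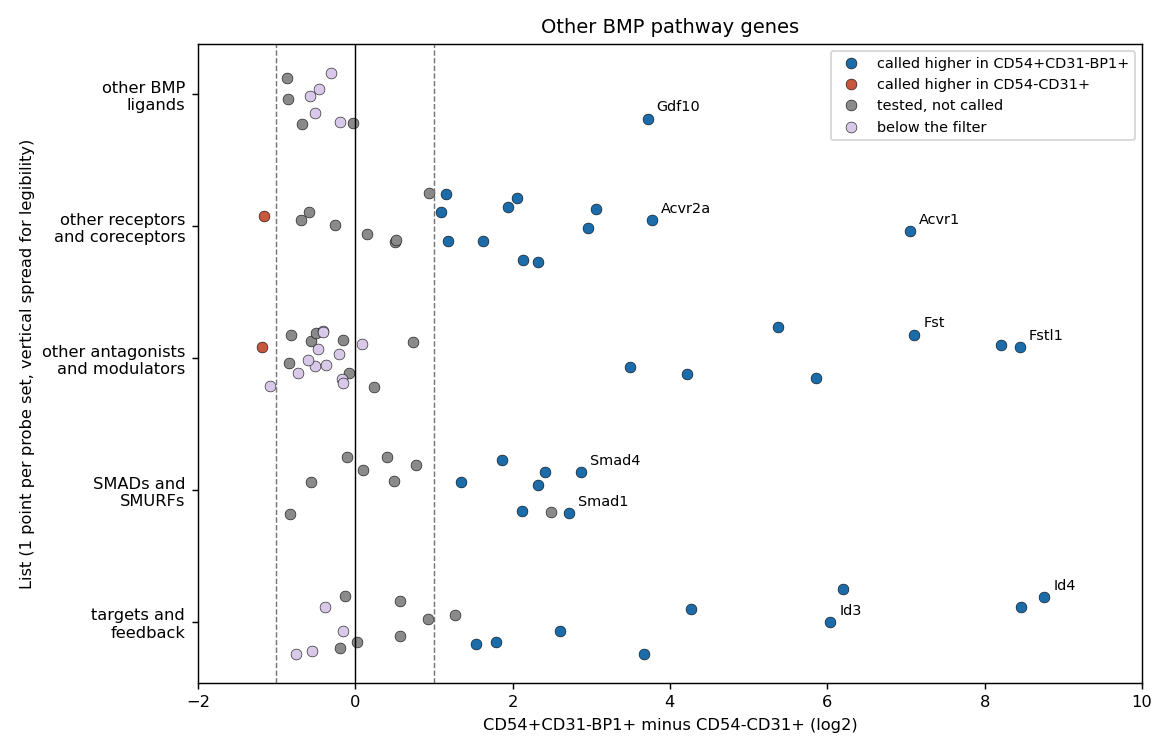
Difference between the populations (log2, BP1+ minus CD31+, horizontal axis) for each of the 93 probe sets of the 5 lists of further pathway genes (1 point each, a row per list, vertical spread for legibility); dashed lines mark -1 and 1. Blue points were called toward BP1+ (36), red toward CD31+ (2), grey were tested and not called (34) and pale points lay below the filter (21); Id4, Fstl1, Fst and Acvr1 lie farthest to the right.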

How the data were processed

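The values are log2 expression values per probe set that the authors deposited, made with Affymetrix Expression Console 1.1 and RMA per the submitters' processing notes; RMA subtracts background, equalises array distributions and summarises the probes of a set. Which arrays were normalized together is not given in the sources used here. In the deposited values the SD over all probe sets was 2.30 to 2.33 on the BP1+ arrays and 2.04 to 2.11 on the CD31+ arrays. All 7 columns were used. Gene symbols came from a platform annotation of 2016, which gave 1 symbol to 34945 probe sets. After leaving out 64 control probe sets and those without 3 arrays above their 40th percentile, limma 3.58.1 in R 4.3.3 (lmFit and eBayes, no covariates, two-sided) compared the populations, with Benjamini-Hochberg adjustment over all probe sets tested. The procedure was tested on simulated data. Arrays have no depth, and their number limits the precision. The members and lists were chosen with earlier results of these data known. Named genes were all members, up to 6 called genes per list and direction, and the 4 nearest patterns to Bmp4 and Bmp2; a gene not called is named in addition where it completes a list, as are both Acvr2b and Bmp1 probe sets. Alternatives numbered 18, and 1 more was chosen after seeing the data. The main fit did not pair the arrays by replicate number.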

Additional observations from a re-analysis of the deposited data

Results flagged for a closer look

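Among the 26 probe sets, 2 had 1 BP1+ array set apart from the other 3 by a larger share of the group's range than Dixon's 95% critical value for 4 samples, which chance passes in about 1 group in 20. For Bmpr1a 1425491_at BP1+ array 4 read 7.42 against 6.999 on the next array, a share of 0.889. For Grem1 1425357_a_at BP1+ array 4 read 10.995 against 11.41 on the next, a share of 0.886. Neither gap approaches the difference between the populations, and leaving that array out gave 1.60 for Bmpr1a 1425491_at and 5.63 for Grem1.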

How the results depend on the processing

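Between 15 and 17 member probe sets were called toward BP1+ under all 19 alternatives, against 16. Leaving out 1 array at a time gave 15 to 16 toward BP1+ and 1 to 1 toward CD31+. Member counts toward CD31+ were 2 with the adjusted p alone, with the hybridisation control block and without both BP1+ array 4 and CD31+ array 2, and 0 with treat (against a difference of 1). The small difference of Bmpr2 1441652_at (-0.12, not called) changed sign after cyclic loess (0.15), with the hybridisation control block (0.11), without CD31+ array 2 (0.045) and without both arrays (0.038); without single arrays it ran from -0.24 to 0.045. Further pathway probe sets called toward CD31+ numbered 0 with the filter at the 60th percentile and with treat, 5 after a second quantile normalization, 12 with the adjusted p alone and 1 to 3 without single arrays, against 2. Over all probe sets, treat left 3581 of 7649 calls toward BP1+ and 1506 of 4293 toward CD31+, and the adjusted p alone gave 8580 toward CD31+; the treat rule asks for more than the main one and the adjusted p alone for less. The median of all tested probe sets moved from 0.07 to -0.13 after a second quantile normalization. With the replicate number as a block, 16 member probe sets were called toward BP1+ and 1 toward CD31+, and 7043 and 4212 of all. Deviations of same-numbered arrays correlated at -0.12, 0.00 and 0.12 over probe sets, and those of differently numbered arrays at -0.11 to 0.13. With so few arrays this cannot show whether same-numbered arrays share a mouse or a sort. With 3 and 4 arrays, and levels under or near the floor on 1 side, the sizes of differences are limited for Bmp4, Bmp6, Grem1 and Chrdl1. The same holds for most Bmpr1a probe sets, for Bmp5 1421282_at and 1421283_at, and for Bmpr2 1434310_at.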
